A study of Mus musculus with 12 samples.

Results

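The comparison described here is zileuton against vehicle in the injured mouse brain, taken across all genes. Its members are the 6 RNA-seq libraries of the 2022 batch out of 12 libraries in the whole series, 3 from mice given zileuton after traumatic brain injury (TBI) and 3 from mice with the same injury and no zileuton. They were chosen by the labels alone. All mice were wild-type C57BL/6J males of 20 to 25 g, and in all 6 the injury was a controlled cortical impact with a 3 mm tip at 1.5 m/s, a depth of 1.5 mm and a dwell time of 100 ms. Zileuton, dissolved in corn oil, was injected into the peritoneum at 10 mg/kg each day after the injury. The labels give the comparison mice injury only, and the study's text calls them vehicle. Tissue around the contusion was taken at 7 days by the study's methods, whereas the labels of the zileuton mice read 7, 8 and 9 days. The column names of the count table name the group but cannot be tied to a single labelled mouse, so the libraries are called vehicle A, B and C and zileuton A, B and C, and a library cannot be matched to a day. The remaining 6 libraries, 3 sham and 3 TBI of a 2018 batch, were used only to mark the genes that differ after injury.

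Zileuton inhibits 5-lipoxygenase, the product of Alox5, which with its partner protein Alox5ap turns arachidonic acid into leukotrienes, lipid mediators made by myeloid cells. A cortical contusion kills neurons and draws in microglia, blood monocytes and neutrophils, and astrocytes around it become reactive. Interferons act on all of these cells through dedicated transcription factors and induce a shared set of antiviral and antigen presentation genes, among them the OAS and IFIT families, the guanylate binding proteins (GBP) and the immunity-related GTPases (IRG). In whole tissue, fewer cells of a type and less RNA per cell cannot be told apart.

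The 6 libraries held 27845562 to 35453257 counts each, with TMM factors of 0.98 to 1.02, and all 20 general neuron markers and all 20 astrocyte markers passed the filter on low counts. Of the 17363 genes that passed it, 0 had an adjusted p under 0.05 in edgeR's quasi-likelihood test, whereas 26 did in DESeq2, 20 lower and 6 higher with zileuton (0.101% and 0.0302% of the 19842 genes with an adjusted p there). Below, nominally lower or higher means an unadjusted p under 0.05 in edgeR. This held for 6.83% of all tested genes, 3.9% lower and 2.93% higher. Of the nominal genes 42.9% were higher, against 64% when log2(TPM + 1) was tested with limma. The share was 71.7% with an equal-variance t test on TPM. The study states a two-sided t test but not the values it used, so this TPM test need not be the study's. The study itself reports more genes lowered than raised by zileuton. All 3 zileuton libraries lay below all 3 vehicle libraries for 7.04% of genes and above them for 6.51%. These shares are the background for each list below.

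Interferon-inducible genes had log2 fold changes below 0 throughout. All 43 interferon-stimulated genes tested had a log2 fold change below 0, with a median of -0.67, and 24 of them, 55.8%, were nominally lower. Over all genes tested the median was 0.00254 and 49.3% were below 0. For 16 of the 43 every zileuton library lay below every vehicle library. Of the 18 tested GBP and IRG genes, a list put together after the values were seen, 12 were nominally lower, 11 had groups that did not overlap, and the median was -0.56. The interferon-inducible p200 genes, DNA sensors such as Ifi204 and also listed after the values were seen, had 2 of 11 nominally lower and a median of -0.74. In these lists 0 members had an adjusted p under 0.05 in edgeR. Of the 20 genes that DESeq2 called lower, 8 were in the first 2 lists (Gbp3, Gbp6, Gbp7, Iigp1, Rtp4, Ifit3, Ifit3b and Ifi27l2a) and 4 in the ribosomal and respiratory chain lists described further on.

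Gbp3, a guanylate binding protein on chromosome 3, had the second lowest p of all tested genes. Its level was 32.3, 32.6 and 29.6 CPM (counts scaled to the library size) in vehicle A, B and C, and 18.4, 13.8 and 17.6 CPM in zileuton A, B and C. The groups were far apart relative to their spread, at 31.5 ± 1.66 against 16.6 ± 2.46 CPM (SD). The log2 fold change was -0.92 with an SE of 0.12 (edgeR, unadjusted p = 6.16e-05, adjusted p = 0.534). Its neighbour Gbp7 stood at 14, 15.4 and 13.1 CPM in the vehicle libraries and at 10.1, 8.61 and 9.24 CPM with zileuton, again without overlap. Gbp2, of the same cluster, was at 15.5, 27.5 and 22.2 CPM in vehicle and 23.2, 15.5 and 17.5 CPM in zileuton libraries, so its groups overlapped (edgeR, unadjusted p = 0.357). GBP genes share sequence, and reads could be split between them.

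Promoters of these genes are shown because interferon-responsive factors bind a repeated element, the ISRE. The letters searched were GAAA followed after any 2 bases by GAAA, on either strand (TTTC and TTTC on the other), with overlapping copies counted. RefSeq windows of 250 bases before to 50 after a transcription start (build GRCm38.p6) were at hand for 31 of the 43 interferon-stimulated genes, and 20 of these, 64.5%, held the letters. All 9 GBP and IRG genes with a window held them, against 3.99% of the 27025 genes with any window. The lines give parts of the windows 5′ to 3′ on the strand of the gene, with the motif in capitals.
Gbp3, chr3:142559969-142560043, plus strand: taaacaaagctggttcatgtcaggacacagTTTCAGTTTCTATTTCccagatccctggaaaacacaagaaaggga
Gbp7, chr3:142530253-142530322, plus strand: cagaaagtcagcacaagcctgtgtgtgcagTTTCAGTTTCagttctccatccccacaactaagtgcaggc
Gbp2, chr3:142620574-142620643, plus strand: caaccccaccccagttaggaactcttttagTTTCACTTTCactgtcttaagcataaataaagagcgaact
Ifit3, chr19:34583343-34583446, plus strand: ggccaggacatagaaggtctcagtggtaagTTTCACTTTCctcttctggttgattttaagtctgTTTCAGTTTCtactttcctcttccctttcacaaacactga
The motif stood in the windows of Gbp3 and Gbp7, whose groups did not overlap, and equally in that of Gbp2, whose groups did. The stretch shown for Ifit3 has the same letters at its near copy Ifit3b. It lies before the transcription start and does not show how reads were assigned. Whether reads of this pair could be split between them was not tested.

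Among the classical antiviral genes, Ifit3, which binds viral RNA together with other IFIT proteins, was at 77.6, 145 and 80.6 CPM in vehicle and at 62, 43.9 and 52.9 CPM in zileuton libraries. Vehicle B was far above the other libraries, yet the groups did not overlap (log2 fold change -0.94, SE 0.24, edgeR, unadjusted p = 0.0048). Rtp4, an interferon-induced chaperone of receptors, was at 14.6, 25.7 and 17.3 CPM in vehicle and 10.9, 7.13 and 8.57 CPM in zileuton libraries. Its log2 fold change was -1.12 with an SE of 0.23 (edgeR, unadjusted p = 0.00135). Samd9l, an antiviral factor, was low and tight in both groups, at 8.47, 9.46 and 7.92 CPM against 6.08, 4.81 and 5.3 CPM. Ifi27l2a, a small interferon-induced protein, was at 17.1, 32.9 and 26.1 CPM in vehicle and at 15.9, 9.9 and 8.99 CPM in zileuton libraries, where zileuton A came close to vehicle A. The synthetases of the antiviral second messenger 2-5A showed the same order with overlap. Oas2 was at 2.95, 5.46 and 3.14 CPM in vehicle against 2.99, 0.911 and 1.46 CPM in zileuton libraries, and Oas3 at 1.92, 6.98 and 3.17 against 2.86, 0.974 and 1.05 CPM.

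**Figure D1:**
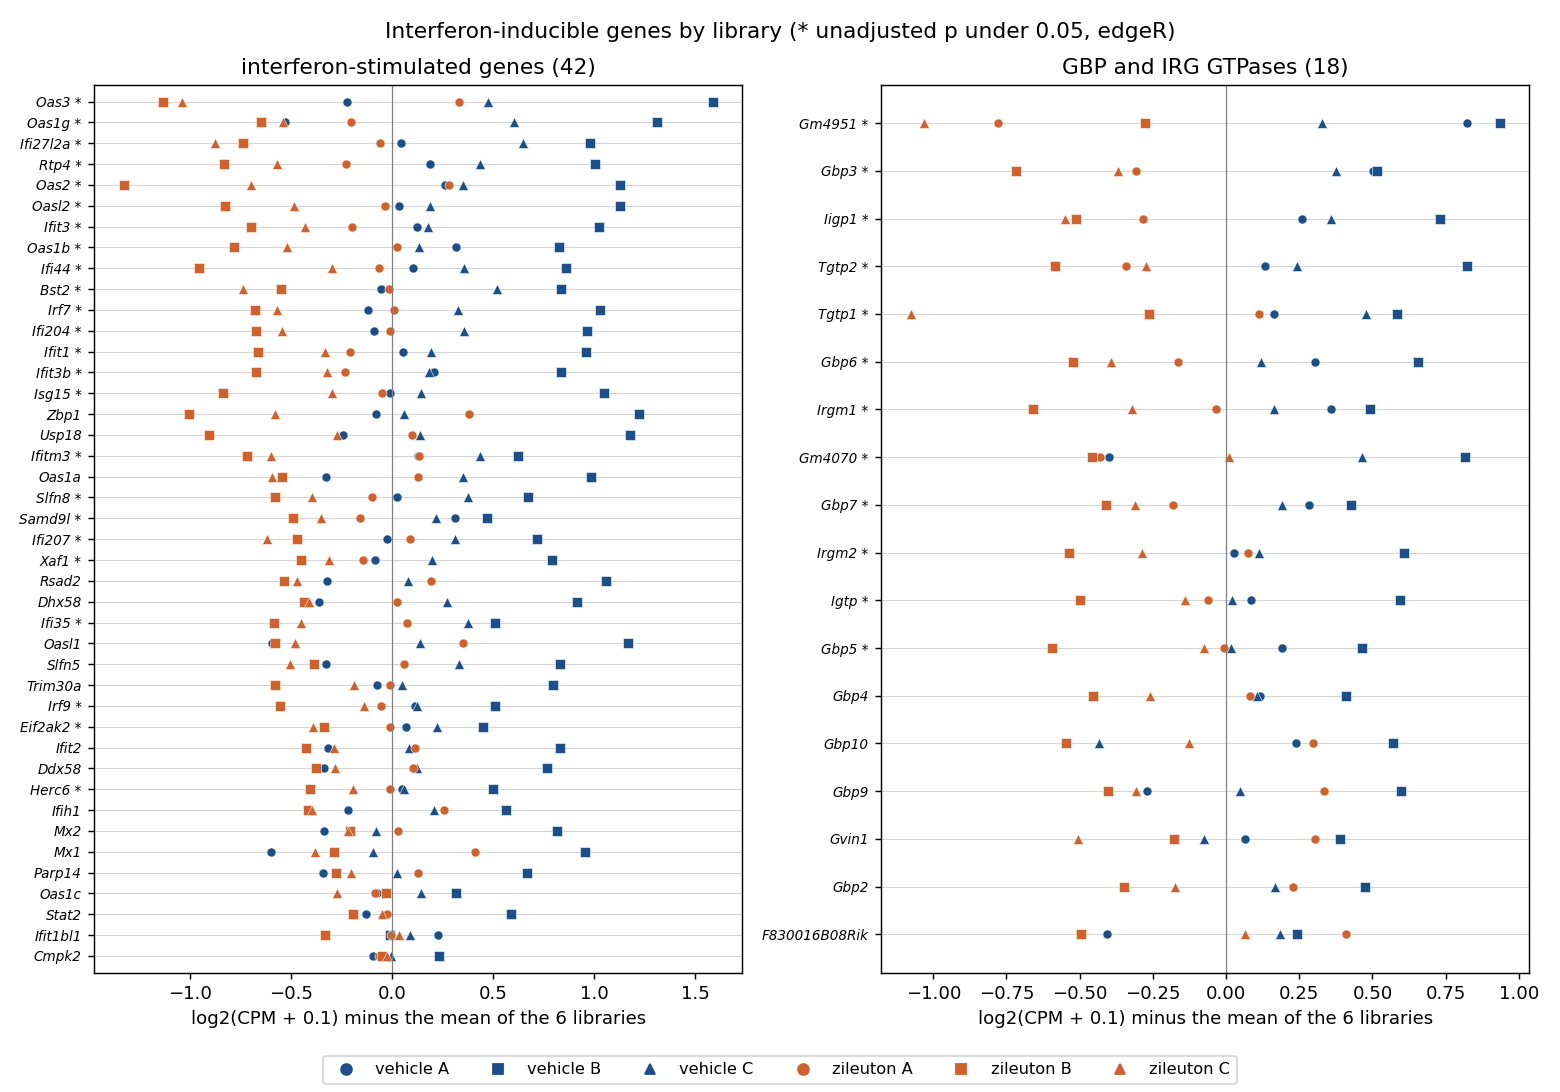
Levels of 42 of the 43 interferon-stimulated genes (left) and the 18 GBP and IRG genes (right) in each library, as log2(CPM + 0.1) minus the mean of the 6 libraries; blue points are vehicle and orange points zileuton, a circle, square and triangle mark libraries A, B and C, and an asterisk marks an unadjusted p under 0.05 in edgeR. Vehicle B lies far to the right for most of the interferon-stimulated genes, zileuton B and C lie to the left, and for Gbp3 the 3 zileuton libraries, at 13.8 to 18.4 CPM, lie left of the 3 vehicle libraries, at 29.6 to 32.6 CPM.

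Single libraries carried much of this. The median deviation of the 43 genes from their 6-library mean was -0.08, 0.84 and 0.19 (log2 CPM) in vehicle A, B and C, and -0.01, -0.56 and -0.40 in zileuton A, B and C. Vehicle A therefore lay below zileuton A. Without vehicle B 12 of the 43 genes were nominally lower, against 3.98% of all genes, without zileuton B also 12, and without zileuton A 32. Of the 11 p200 genes 0 were nominally lower in edgeR without vehicle B, when their median was -0.39, and 0 without zileuton B. Leaving out the genes that the study names, 21 of 40 interferon-stimulated genes were nominally lower. The GBP and IRG list was ordered with no overlap, at 0.15, 0.59 and 0.17 in vehicle and -0.02, -0.51 and -0.30 in zileuton libraries, and 7 of its 18 genes stayed nominally lower when vehicle B or when zileuton B was left out. On TPM, the equal-variance t test had 3 of the 43 interferon-stimulated and 5 of the 18 GBP and IRG genes lower at an unadjusted p under 0.05. Relative to the median deviation of the 20 homeostatic microglia markers in the same library, the interferon-stimulated genes stood at 0.17, 0.76 and -0.03 in vehicle and -0.15, -0.56 and -0.24 in zileuton libraries, without overlap. Set against activated microglia and macrophage markers the order was 0.26, 0.61 and -0.31 against -0.23, -0.37 and 0.01, and the groups overlapped. The GBP and IRG list likewise did not overlap relative to the homeostatic markers. Relative to the activated markers it did, at 0.488, 0.364 and -0.33 in vehicle and -0.241, -0.322 and 0.105 in zileuton libraries. With the homeostatic microglia level as a covariate 26 of the 43 were nominally lower, against 5.28% of all genes in that fit. In the 2018 batch 38 of the 43 genes and 18 of 20 GBP and IRG genes were at least 2-fold higher after injury than in sham at an adjusted p under 0.05 (edgeR), a call that 8.73% of the tested genes had.

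Genes of antigen presentation by MHC class I are also induced by interferons. All 20 tested had a log2 fold change below 0, with a median of -0.39, and 7 were nominally lower while 13 were not. With the length trend of each library removed, as described further on, 2 of the 20 were nominally lower and the median was -0.35. B2m, the light chain of MHC class I, was at 388, 461 and 578 CPM in vehicle and 388, 310 and 281 CPM in zileuton libraries, so vehicle A and zileuton A were equal to 3 digits. Psme2, a proteasome activator subunit, was at 24.6, 27.9 and 27.5 against 21.4, 20.3 and 19.5 CPM, with no overlap. The count was 2 of 20 without vehicle B, without vehicle C or without zileuton C, 3 without zileuton B, 11 without vehicle A and 16 without zileuton A. Class II genes were mixed, with 1 of 14 nominally lower and a median of -0.11.

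A second set of genes split the zileuton libraries rather than the treatments. Markers of neutrophils, monocytes and reactive astrocytes were low in zileuton B and C. In zileuton A the median deviations of neutrophil and reactive astrocyte markers lay above every vehicle library. That of the monocyte markers, 0.335 in zileuton A, lay among the vehicle values of -0.03, 0.44 and 0.39. The median deviation of the 11 tested neutrophil markers was 0.28, 0.47 and 0.28 in vehicle A, B and C, 0.91 in zileuton A, and -0.97 and -1.22 in zileuton B and C. For the 20 reactive astrocyte markers it was -0.09, 0.06 and 0.27 in vehicle, 0.59 in zileuton A, and -0.37 and -0.49 in zileuton B and C. Of the neutrophil markers 0 and of the reactive astrocyte markers 0 were nominally lower in edgeR with all libraries, and 8 and 11 were without zileuton A, when 5.94% of all genes were. In zileuton B and C, but not A, 13 of the 20 reactive astrocyte markers and 7 of the 11 neutrophil markers lay below every vehicle library, a pattern that 8.05% of all genes had.

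Lcn2, a siderophore-binding protein made by neutrophils and reactive astrocytes, shows the split. It was at 18.1, 29.8 and 40.9 CPM in vehicle, 43.8 CPM in zileuton A, and 7.98 and 6.2 CPM in zileuton B and C. Gfap, the intermediate filament of astrocytes, was at 2332, 2944 and 3354 CPM in vehicle and 3830, 2465 and 2540 CPM in zileuton libraries, so no difference was detectable (log2 fold change 0.03, SE 0.20, edgeR, unadjusted p = 0.87). Of the neutrophil list 9 of 20 genes did not pass the filter, the defining granule genes Ly6g, Mpo, Elane, Ltf, Camp and Ngp among them. The summed level of the 11 that did pass was 49.8 to 90.5 CPM in vehicle and 38.8 to 104 CPM in zileuton libraries. Lcn2, which is in both the neutrophil and the reactive astrocyte list, and Csf3r made up most of that sum in each library. Csf3r was at 19.7, 32.3 and 37.3 CPM in vehicle and 39.8, 28.7 and 26.9 CPM in zileuton libraries. What set zileuton A apart was not tested.

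**Figure D2:**
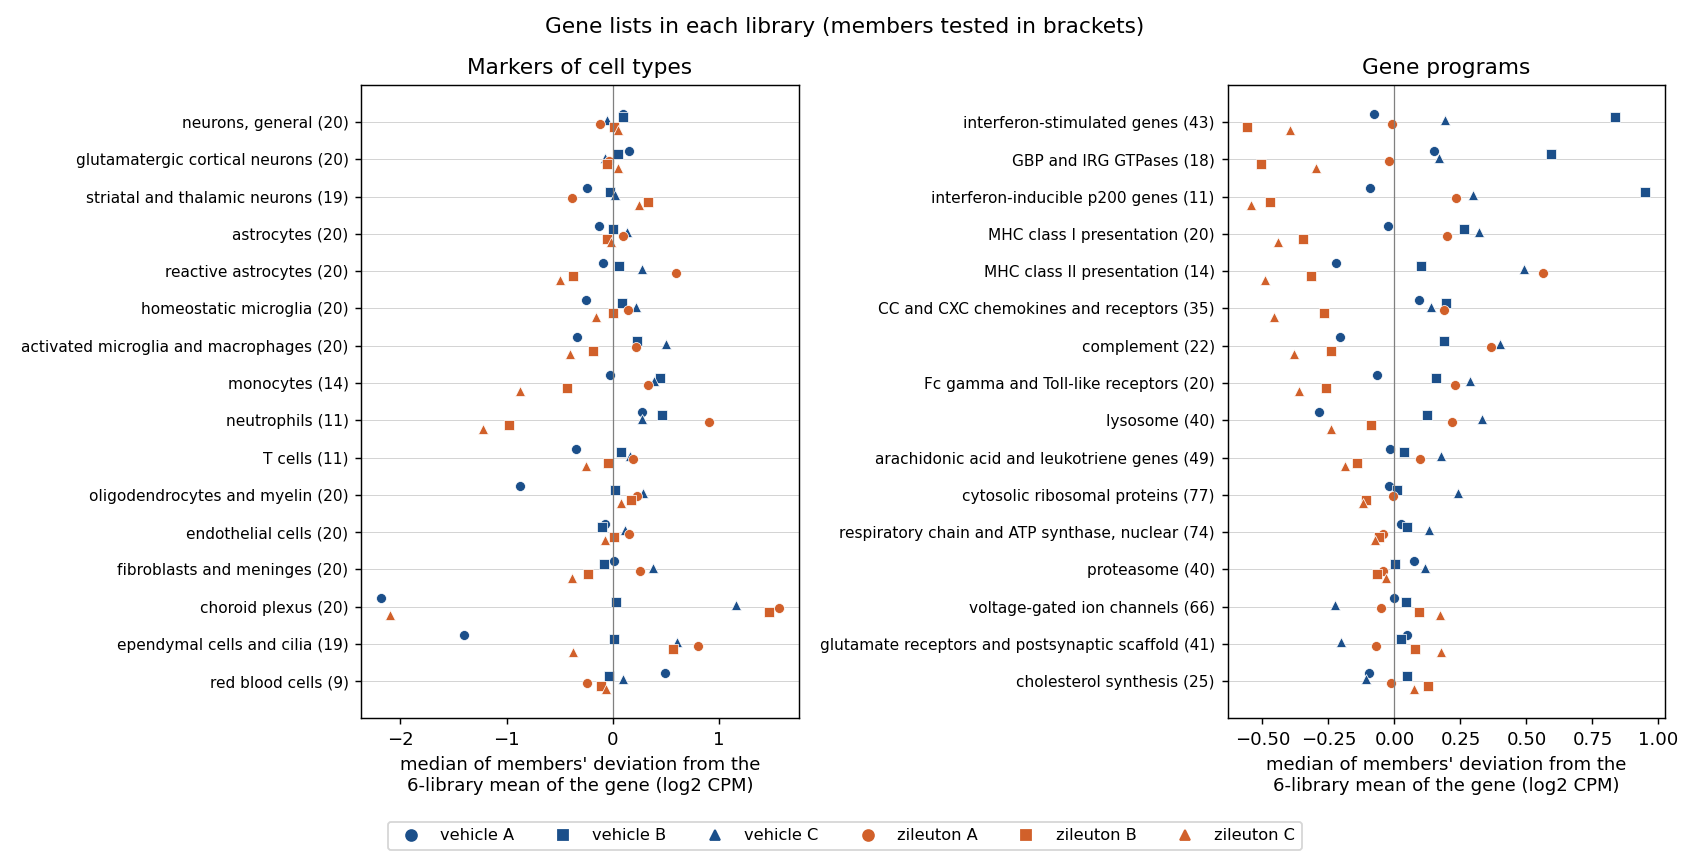
Median deviation of each list's tested members from their 6-library means (log2 CPM), per library, for cell type markers (left) and gene programs (right); blue is vehicle, orange zileuton, and a circle, square and triangle mark libraries A, B and C. Neutrophil and reactive astrocyte markers place zileuton A at 0.91 and 0.59, apart from zileuton B and C at -0.37 and below, while choroid plexus markers range from -2.18 in vehicle A to 1.56 in zileuton A within both groups.

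Chemokines and their receptors steer these cells into tissue. Of 35 tested, 24 were below 0, 6 were nominally lower and 0 higher, with a median log2 fold change of -0.19. Of these 6, 4 are genes that the study names for zileuton from the same samples, and without the study's genes 2 of 31 were nominally lower, with a median of -0.10. Ccl2, the main monocyte attractant, was at 4.46, 3.69 and 2.67 CPM in vehicle and 2.63, 1.35 and 0.906 CPM in zileuton libraries, with groups that only just did not overlap. Ccl7, a related attractant, was near or below 1 CPM, at 1.27, 0.858 and 0.571 against 0.362, 0.0314 and 0.139 CPM. Ccr1, a receptor on monocytes and neutrophils, was at 1.92, 2.2 and 1.57 in vehicle and 1.38, 0.66 and 0.418 CPM in zileuton libraries. The count of nominally lower members was 10 without zileuton A, 1 without zileuton B, 3 without zileuton C or without vehicle A, and 4 without vehicle B. In the 14 tested monocyte markers 3 were nominally lower, Chil3, Ly6c2 and Ccr1, of which the study names Chil3 and Ccr1. Without the study's genes 1 of 11 was, with a median log2 fold change of -0.12 against -0.43. The count of 3 was 7 without zileuton A, 5 without vehicle A, 2 without zileuton C, and 1 without vehicle B or without zileuton B.

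Markers of activated microglia and macrophages gave few nominal genes, but a larger share than all genes. All 20 had a log2 fold change below 0, with a median of -0.20. Of these 3, or 15%, were nominally lower, against 3.9% of all genes, and 2 of 18 without the genes that the study names. Spp1, osteopontin, a secreted phosphoprotein of phagocytic microglia, was at 785, 982 and 1560 CPM in vehicle and 733, 345 and 370 CPM in zileuton libraries. Its groups did not overlap, by a small margin between vehicle A and zileuton A (log2 fold change -1.20, SE 0.34, edgeR, unadjusted p = 0.00727). Msr1, a scavenger receptor, was at 14.7, 15.1 and 15.1 CPM against 11.8, 9.52 and 5.19 CPM. Cd68, a lysosomal protein often used to stain activated microglia, was at 93.5, 170 and 184 CPM in vehicle and 152, 125 and 91.6 CPM in zileuton libraries and overlapped widely (edgeR, unadjusted p = 0.32). Without vehicle A, which was lowest of the vehicle libraries for this list, 9 of the 20 markers were nominally lower. Of 20 homeostatic microglia markers 7 were above 0 and 13 below, 0 were nominally lower, and the median was -0.08.

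Few genes of the pathway that the drug targets passed even nominally. Of 49 tested arachidonic acid and leukotriene genes, 3 were nominally lower and 0 higher, and the median log2 fold change was -0.11. Alox5 was at 2.3, 1.89 and 3.1 CPM in vehicle and 4.64, 2.39 and 2.79 CPM in zileuton libraries (log2 fold change 0.43, SE 0.31, edgeR, unadjusted p = 0.195). Alox5ap was at 13.8, 19.7 and 22 against 19.2, 13.8 and 11.2 CPM. Inhibition of the enzyme need not alter its transcript, so Alox5 does not check the labels. The 3 genes that passed nominally were Plb1, a phospholipase, at 10.1, 11.3 and 10.1 against 7.1, 6.79 and 5.26 CPM, Hpgds, a prostaglandin D synthase, at 19.3, 18.4 and 23 against 16.4, 16.8 and 14.3 CPM, and Ptges3, a co-chaperone also named prostaglandin E synthase 3, at 61.3, 52.3 and 69.1 against 48.9, 47.9 and 51.5 CPM. All 3 were without overlap.

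Many short housekeeping genes had log2 fold changes below 0 as counted. Of 77 tested cytosolic ribosomal protein genes, 75 had a log2 fold change below 0, 27 were nominally lower, and the median was -0.18. Of 74 nuclear genes of the respiratory chain and ATP synthase, 70 were below 0 and 25 nominally lower, with a median of -0.15. Rpl36a, a protein of the large ribosomal subunit, was at 72, 76.7 and 79.8 CPM in vehicle and 59.2, 58.8 and 57.4 CPM in zileuton libraries, a tight pair of groups. Cox7a2, a subunit of cytochrome c oxidase, was at 77.4, 77.9 and 81.4 against 59.6, 59.1 and 65 CPM. Uqcrb, of complex III, was at 64.2, 53.2 and 66.9 against 39.5, 43 and 46.8 CPM. The proteasome followed, with 10 of 40 nominally lower and a median of -0.10, a count that was 3 without zileuton B and 5 without zileuton C or without vehicle C.

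These lists hold short transcripts, and transcript length moved with treatment in the whole table. Across the 17340 genes with an effective length, the Spearman correlation of the log2 fold change with length was 0.375, given as a description. Within single libraries, the correlation of the deviation from the 6-library mean with length was -0.09, -0.04 and -0.39 in vehicle A, B and C, and 0.02, 0.27 and 0.28 in zileuton A, B and C. Vehicle C and zileuton B and C thus bore most of the trend, and zileuton A almost none. When the genes were cut into 5 groups of equal size by length, 342 of the shortest group, up to 1987 bases, were nominally lower and 20 higher. In the longest group, from 6831 bases, 37 were lower and 329 higher.

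**Figure D3:**
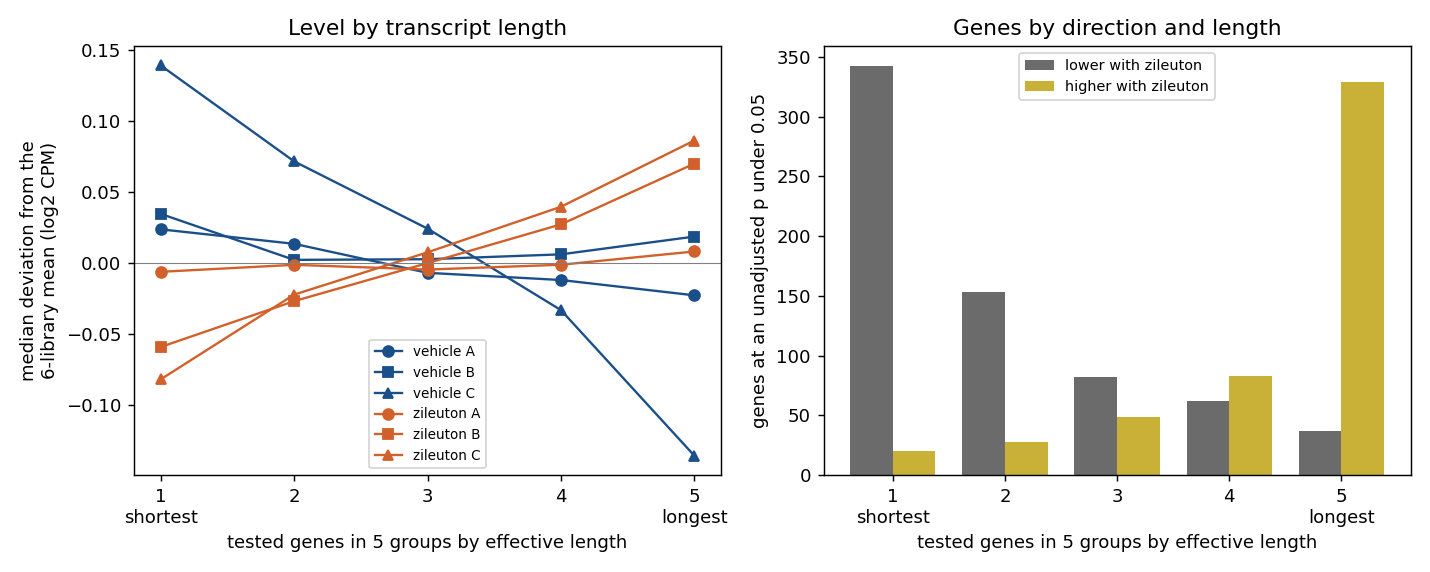
Left, the median deviation from the 6-library mean (log2 CPM) in 5 groups of the tested genes ordered by effective length, 1 line per library (blue vehicle, orange zileuton). Right, the number of genes in each group at an unadjusted p under 0.05 in edgeR, lower (grey) or higher (yellow) with zileuton; vehicle C slopes down from 0.139 to -0.136, zileuton B and C slope up, and the nominal genes pass from 342 lower and 20 higher to 37 lower and 329 higher.

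With each library's own length trend taken out, the medians of the housekeeping lists came near to 0 and those of the interferon lists did not. Of the ribosomal protein genes 5, or 6.49%, were then nominally lower, with a median log2 fold change of -0.02. Of the respiratory chain genes 6 were, or 8.11%, with a median of 0.01, and of the proteasome genes 4, or 10%. The background in that fit was 2.83% lower and 1.76% higher, so these shares stayed above it. Of the 43 interferon-stimulated genes 25 were then nominally lower, with a median of -0.70, and of the GBP and IRG genes 12, with a median of -0.59. For Rpl36a the unadjusted edgeR p passed from 0.000501 to 0.00881 and for Rpl38, another large subunit protein, from 0.00291 to 0.538. For Gbp3 it stayed at 7.07e-05. Within the ribosomal list the count of 27 was also 15 without vehicle C and 9 without zileuton B or without zileuton C, the libraries with the steepest slopes. The origin of the slopes was not tested.

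**Figure D4:**
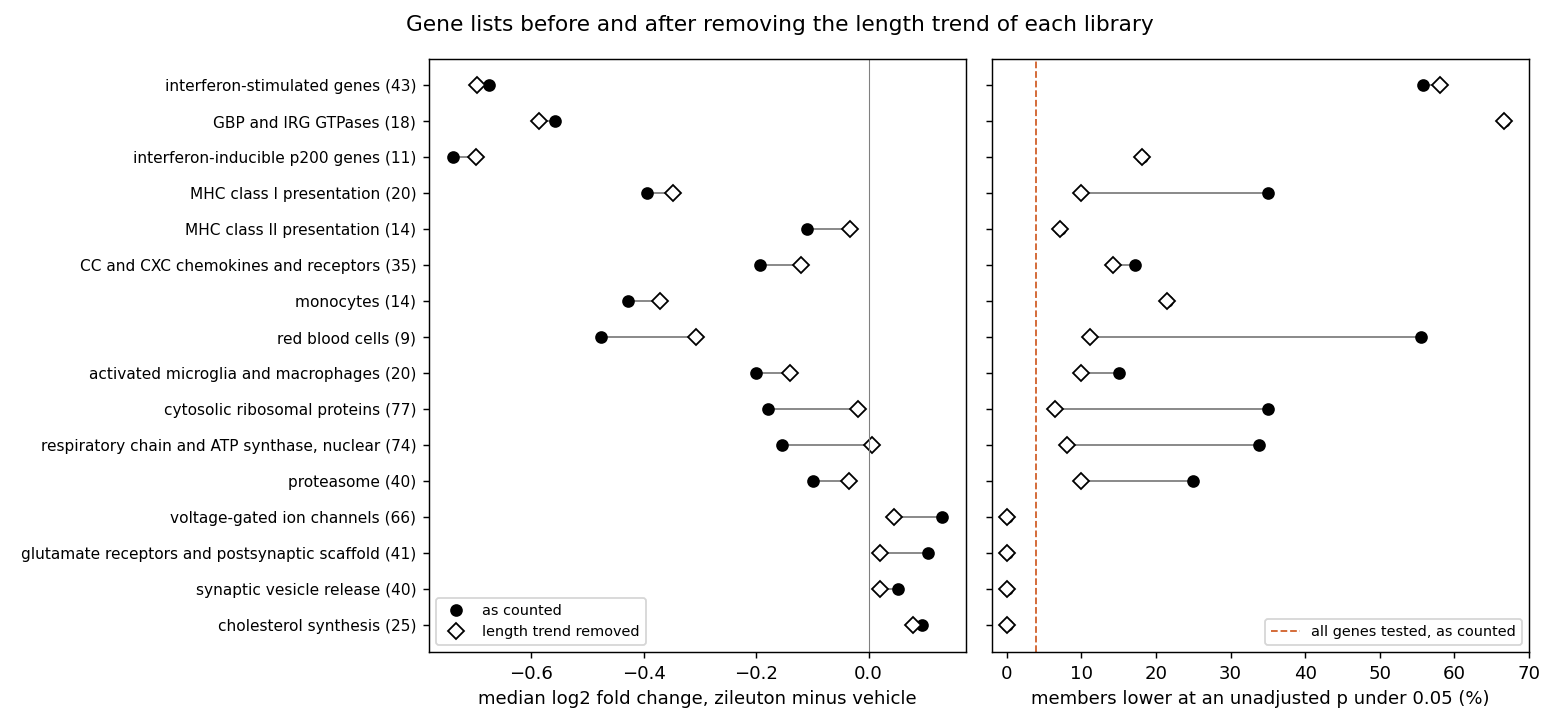
Median log2 fold change of zileuton minus vehicle (left) and the percentage of members lower at an unadjusted p under 0.05 in edgeR (right) for 16 lists, as counted (filled circles) and with each library's length trend removed (open diamonds); the dashed line is all genes tested. Ribosomal, respiratory chain and proteasome lists move towards 0, from medians of -0.18, -0.15 and -0.10, whereas the interferon-stimulated genes stay at -0.67 and -0.70.

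Lists of long neuronal genes stood at the other end. Of 66 voltage-gated ion channel genes 58 were above 0, with a median log2 fold change of 0.13, and 2 were nominally higher. Of 41 glutamate receptor and postsynaptic genes 32 were above 0, with a median of 0.11 and 3 nominally higher. Unc13a, which primes synaptic vesicles, belongs to another list, the 40 synaptic vesicle release genes, of which 3 were nominally higher. Unc13a was at 265, 243 and 212 CPM in vehicle and 300, 293 and 346 CPM in zileuton libraries, with no overlap. Scn1a, a sodium channel subunit, was at 135, 135 and 112 against 151, 157 and 180 CPM. Without the length trend the medians fell to 0.05 for the channels and 0.02 for the glutamate receptor list, and 1 and 0 genes were nominally higher. Of the synaptic vesicle release genes 2 were, against 1.76% of all genes in that fit. Unc13a stayed nominally higher there (log2 fold change 0.27, edgeR, unadjusted p = 0.0131), and so did Scn1a. The general neuron markers, 20 genes of all lengths, had a median of -0.05 and 2 nominally lower members. The groups overlapped in their summed level, which was 9886 to 11600 CPM in vehicle and 9921 to 11150 CPM in zileuton libraries.

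Tissue composition varied widely within both groups. Choroid plexus, the epithelium in the ventricles that makes cerebrospinal fluid, is not part of the cortex, and its 20 markers had median deviations of -2.18, 0.03 and 1.16 in vehicle and 1.56, 1.47 and -2.10 in zileuton libraries. Their summed level went from 309 to 1949 CPM in vehicle and from 375 to 2511 CPM in zileuton libraries. Of the 20 markers 1 was nominally higher and 0 lower. Ependymal markers followed the same order in vehicle, at -1.40, 0.01 and 0.60, and stood at 0.80, 0.57 and -0.38 in zileuton libraries. Myelin and oligodendrocyte markers were low in vehicle A alone, at -0.87, against 0.02 or above in all other libraries. With the choroid plexus level as a covariate, a fit added after the data were seen, 28 of the 43 interferon-stimulated genes were nominally lower, against 5.15% of all genes.

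Globin genes of red blood cells are short as well. Of the 9 tested red blood cell genes 5 were nominally lower and without overlap, with a list median of -0.48, and 1 was once the length trend was removed. Hba-a1, an alpha globin, was at 64.5, 44.5 and 58.7 CPM in vehicle and 37.2, 38.4 and 38.1 CPM in zileuton libraries. Hbb-bs, a beta globin, was at 122, 75.6 and 102 against 69.8, 73.1 and 66.5 CPM. Vehicle A was highest for both, and near copies of the alpha globins could share reads.

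Of the genes that were at least 2-fold higher after injury in 2018 at an adjusted p under 0.05, 1573 of 1706 were tested here. With zileuton 99 of them, 6.29%, were nominally lower, against 3.9% of all genes, and 6 were higher. The median log2 fold change was -0.13. By library their median deviation was -0.20, 0.09 and 0.31 in vehicle A, B and C and 0.29, -0.17 and -0.33 in zileuton A, B and C, the same split of the zileuton libraries as in the myeloid lists. That median was -0.35 without zileuton A, 0.00159 without vehicle C and -0.00722 without zileuton C, so the shift rests on single libraries. Without zileuton A 426 were nominally lower, without zileuton B 44, without zileuton C 50, without vehicle B 62, without vehicle A 205 and without vehicle C 69. Of all 17363 tested genes the counts in the same fits were 1033, 424, 445, 690, 663 and 541. Without zileuton B, zileuton C or vehicle B the share of the injury genes was thus near that of all genes. The genes lower after injury were 131, 0.671% of those tested in 2018, of which 81 were tested here, and 2 were nominally lower and 3 higher. The injury effect rests on another batch, and vehicle mice of 2022 had no sham partners.

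Of the 15 tested genes that the study names for zileuton, 10 were nominally lower and 1, Edar, higher, but that list was chosen on these samples and is not independent evidence of its direction. Other programs gave few nominal genes. Cholesterol synthesis, a task of astrocytes and oligodendrocytes, had 3 of 25 nominally higher and 0 lower, with a median log2 fold change of 0.10. Its regulator Srebf2 was at 173, 182 and 170 CPM in vehicle and 201, 211 and 204 CPM in zileuton libraries, a small difference with no overlap. Of the 22 complement genes 0 were nominally different, of the 40 lysosomal genes 1 was lower, and of the 40 cell cycle genes 1 was lower. Collagens had 1 nominal gene of 44, Col10a1, at 0.651, 2.69 and 0.392 CPM in vehicle and 0.132, 0.126 and 0.105 CPM in zileuton libraries. Endothelial markers had 2 of 20 nominally higher, among them Flt1, a VEGF receptor, at 54.4, 56.8 and 54.1 against 67.2, 71.3 and 66.8 CPM. The neuroblast microtubule gene Dcx was higher with zileuton, at 19.3, 17 and 16.3 against 25.9, 24 and 26.5 CPM, and was among the 6 genes that DESeq2 called higher. Flt1 and Dcx are long, at 10749 and 13751 bases. With the length trend removed their log2 fold changes went from 0.31 to 0.19 and from 0.54 to 0.39. Both stayed nominally higher (edgeR, unadjusted p = 0.0204 and 0.00602).

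Some of the strongest single values belong to genes whose reads may be hard to place. Zc3h11a, a zinc finger gene, is listed under 2 gene IDs. The first was at 42, 41.7 and 34.5 CPM in vehicle and 26.3, 26.4 and 28.6 CPM in zileuton libraries, and the second at 20.5, 22.9 and 26.6 against 31.5, 37.5 and 33.4 CPM. They differed in opposite directions, and their sum was 61.1 to 64.6 CPM in vehicle and 57.9 to 63.9 CPM in zileuton libraries. Fam205a2, which had the lowest p of all, was at 0 in all 3 vehicle libraries and at 3.09, 4.02 and 2.09 CPM in zileuton libraries, and it has near copies in the genome. The clustered protocadherin genes Pcdhga4 and Pcdhga6 share their last exons with the other members of their cluster, and 3 of the 56 tested protocadherins were nominally higher.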

How the data were processed

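RNA-seq of injured mouse brain was analysed for 3 vehicle and 3 zileuton libraries of 2022, with 3 sham and 3 TBI libraries of 2018 used to mark injury genes. The submitters' processing notes name HISAT2, featureCounts from Subread, DESeq2 and build GRCm39, without versions. The authors deposited estimated counts per gene, of which 13.7% were not whole, and TPM per gene, scaled to the same sum in every library. Gene IDs, some from a transcript assembly, were paired with symbols by the GENCODE annotation of GRCm38.

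Counts were rounded and tested with edgeR 4.0.16 (quasi-likelihood F test, TMM factors, filterByExpr, Benjamini-Hochberg adjustment over all tested genes) in R 4.3.3. Alternatives used DESeq2 1.42.0 and limma 3.58.1. The effective length of a gene was its summed count over its summed TPM across the libraries compared. A common factor scaled these lengths to the annotated exon lengths. The length trend was a lowess curve (span 0.3) of each library's deviation, entered as an offset. The plain edgeR fit, with and without this offset, was tested on simulated data. Those data held no shift shared between genes except a length trend, and the other fits were not tested in this way. Totals ran from 27845562 to 35453257 counts per library, but counting error depends on the count of each gene. It is not small for genes with few counts, such as Ccr1 with 21 and 12 counts in zileuton B and C. p-values measure the spread between 3 samples a group.

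Genes were named by rule: the 10 largest changes each way without overlap, the 10 smallest p each way, the highest and the nominal members of each list, DESeq2 calls, and genes the study names, with Gfap, Cd68 and Alox5. Alox5ap was added to these after its values were seen. The members and lists were chosen with earlier results of these data known. A second table with FPKM of 2018 was not used here. An exact permutation test of 3 against 3 cannot go below p = 0.1, so none was run. Some single-gene results are not reported here.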

Additional observations from a re-analysis of the deposited data

How the results depend on the processing

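The count of 1186 genes at an unadjusted p under 0.05 became 2146 with limma-voom sample quality weights, 746 with GC and length trends removed, 2809 with the neuron marker mean and 1924 with the homeostatic microglia marker mean as a covariate, and ran from 689 (without zileuton B) to 1909 (without zileuton A). The count of 0 genes at an adjusted p under 0.05 became 26 with DESeq2, 2 with voom weights, 4 with no filter, and 4 and 3 with limma on log2(TPM + 1) and log2(TPM + 0.1). The 24 nominally lower interferon-stimulated genes became 13 with limma on unfiltered TPM and 3 with the equal-variance t test on TPM. With 1 library left out they ran from 12 to 36. The 12 GBP and IRG genes became 6 with each limma fit on TPM and 5 with that t test, and ran from 7 to 13. The 27 ribosomal protein genes became 8, 8 and 7 with limma on TPM (pseudocounts 1 and 0.1, and no filter) and 7 with that t test. They became 5 without the length trend, 3 without GC and length trends and 63 with the neuron covariate, and ran from 9 to 34. The 25 respiratory chain genes became 9, 8 and 9 with limma on TPM and 12 with that t test. They became 6 without the length trend and 5 without GC and length trends. The cause of these differences was not tested, except that fits without 1 library hold fewer samples. The labels do not say whether the column numbers pair the samples. Deviations of same-numbered libraries correlated at -0.28, 0.0628 and -0.282 across genes. These values cannot decide it, because deviations from a shared mean tend to correlate below 0. A replicate block by column number gave 729 nominal genes, 501 with the length trend removed as well, and left 18 interferon-stimulated, 8 GBP and IRG, 16 ribosomal and 20 respiratory chain genes, or 14, 9, 5 and 3 with the length trend removed. The correlation with length and the medians of the injury lists stayed within 1 SD of the libraries in every alternative run, but that SD is wide: the median of the genes higher after injury, -0.133, ran from -0.349 to 0.00159 with 1 library left out, and that of the genes lower after injury, 0.0505, from -0.0169 (without vehicle C) to 0.177. Genes near or under 1 CPM, such as Ccl7 and Ccr1, rest on few counts per library.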
